A study of Mus musculus with 7 samples.

Results

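The genes described are 8 that make, load or sense GABA: Gad1 and Gad2, which encode the forms of glutamate decarboxylase that make GABA from glutamate, Slc32a1, the vesicular GABA transporter, Gabbr1 and Gabbr2, the subunits of the GABA-B receptor, and Gabra5, Gabrg3 and Gabra4, subunits of GABA-A receptors. They are 8 of the 21911 protein-coding genes with a unique symbol that were examined, and were followed through the ATAC-Seq peaks that overlap the gene or 20 kb on either side of it. ATAC-Seq marks open chromatin, since the Tn5 transposase cuts and tags DNA only where it can reach it. The 8 windows cover 1646 kb of GRCm38 (mm10) and hold 904 of the 1190565 distinct peaks of the 7 libraries, of which 183 reach a -log10 q of 2.

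The cells were alpha, beta, and delta cells sorted by FACS from islets of healthy reporter mice, pooled by sex, whose age was not given in the sources used here. All mice carry mIns1-H2b-mCherry, which labels beta cell nuclei through an Ins1 promoter, and Rosa-LSL-YFP, a reporter that stays silent until Cre acts on it. Gcg-Cre or Sst-Cre switches on YFP in alpha or delta cells, together with any cell that had expressed the Cre earlier. Per the study, cells positive for both mCherry and YFP were left out of all samples. The beta labels do not say which of these Cre lines the beta cells came from. No group was treated. There were 2 alpha, 3 beta, and 2 delta libraries, called replicates in the labels, and every cell type had both sexes.

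GABA is the main inhibitory transmitter of the brain, and islet beta cells also hold large amounts of it. It opens GABA-A receptors, chloride channels built of 5 subunits of several families, and activates GABA-B receptors, which are obligate pairs of Gabbr1 and Gabbr2 protein that act through inhibitory G proteins. In islets it is known as a signal between endocrine cells, and the Gad2 protein as an autoantigen of autoimmune diabetes.

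The lists differed in ways that bear on every value below. Beta 1 held 518503 distinct peaks and the other libraries 75860 to 158066, but of peaks that reached a -log10 q of 2, where q is the p-value of a peak corrected over its list, beta 1 had 25903, the fewest of all, against 32047 and 38058 in beta 2 and beta 3, 52057 and 49047 in alpha cells, and 47042 and 41683 in delta. A -log10 q of 0.0774, which recurs among the beta 1 peaks given here, is close to 0, the value of no evidence. The name of the deposited beta 1 list carries alpha, and those of beta 2 and beta 3 carry delta, so the beta values rest on the labels. The reporters allow beta cells to be sorted from the same mice as alpha or delta cells, and the methods speak of cell types of the same animals, so that beta libraries may share animals with the others. Which libraries do is not given in the sources used here. These names also give sequencing lane 6 for alpha 1, alpha 2, and beta 1 and lane 7 for the rest, so that lane and cell type cannot be told apart between alpha and delta cells.

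Marker genes were read for the presence of a peak within 1 kb of their 5′ end. Gcg, the glucagon gene, had peaks with -log10 q of 16.8 and 16.5 in alpha cells, a weaker one of 2.40 in delta 2, and none elsewhere. Sst, the somatostatin gene, had weak peaks in both delta libraries, at 0.951 and 0.966, and one of 2.34 in beta 1. Ins1, an insulin gene, had a peak in all 7, at 7.34, 1.82, and 6.39 in beta cells, 0.736 and 1.42 in alpha cells, and 3.42 and 0.889 in delta cells, so that beta 1 and beta 3 were the highest and beta 2 lay within the range of the others. Ins2 had one in beta 3 alone, at 1.43. Of 6 delta cell markers, 5 had a peak in each alpha and each delta library, against 4, 1, and 0 in beta 1, 2, and 3. Of 8 alpha cell markers, 8 and 8 had a peak in alpha 1 and 2, 7 and 8 in delta 1 and 2, and 5, 4, and 7 in beta 1, 2, and 3, whereas 9 beta cell markers gave 6, 3, and 7 in the beta libraries and 5 or 6 in each other library. The number of marked genes thus did not single out the labelled cell type of the beta or delta libraries. Of genes that mark other cells, acinar markers had a peak for 1 to 3 of 5, duct markers for 1 or 2 of 4, endothelial markers for at most 1 of 4, immune markers for at most 2 of 4, and glial and neuronal markers for 1 to 3 of 6 per library. Their part in the results was not tested.

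At the annotated 5′ ends the 8 genes differed in how many libraries had a peak. Gabbr1 and Gabra4 had a peak that reached a -log10 q of 2 in every library. Gad2 had a peak in every library too, and it reached 2 in 2 of them. For Gad1 and Slc32a1, no library had a peak. Gabbr2, Gabrg3, and Gabra5 had a peak in some, namely in 6, 5, and 3 of the 7 libraries. With a cell type counted as marked when 2 or more of its libraries had the peak, 4 of the 8 were marked in alpha cells, 5 in beta cells, and 4 in delta cells, against 56.8%, 56.1%, and 54.1% of all protein-coding genes. No library had a peak for 2 of the 8, as for 17.3% of all genes.

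**Figure D1:**
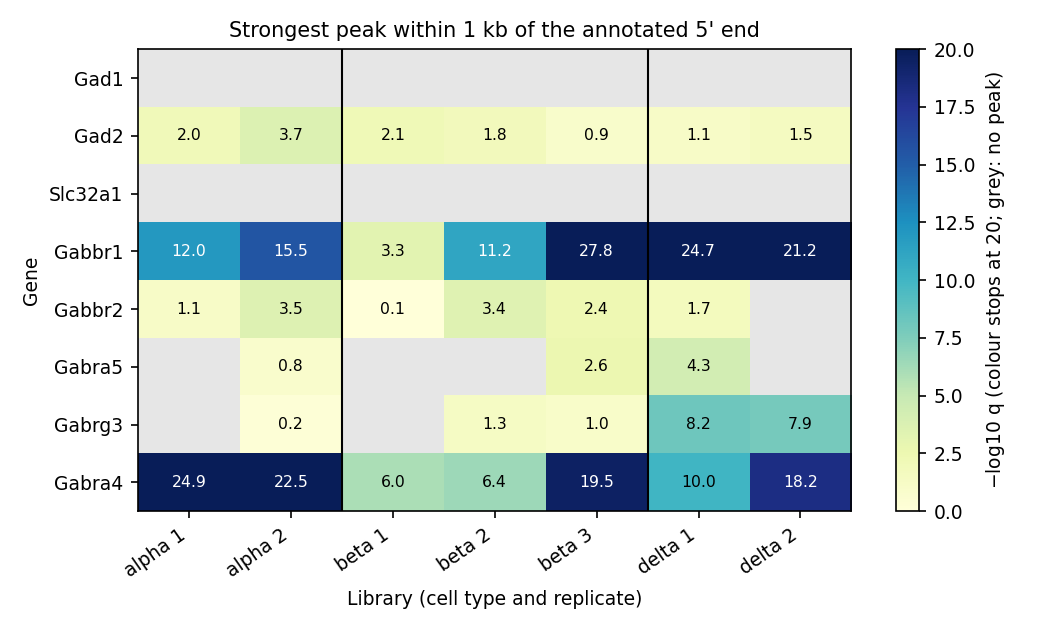
Strength of the strongest peak within 1 kb of the annotated 5′ end of each gene (rows) in each library (columns), as -log10 q. Numbers in the cells are the values, the colour stops at 20, and grey cells have no peak. Gabbr1 and Gabra4 are marked in all 7 libraries, and the values for Gabrg3 are 8.18 and 7.87 in the delta libraries and at most 1.31 in the others.

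A gene was called between cell types when 2 or more libraries of the first had a peak at its 5′ end and no library of the second did, and 0 of the 8 genes were called for any pair. The share of all protein-coding genes called in this way was 1.29% for alpha over beta, 1.2% for alpha over delta, 2.38% for beta over alpha, 2.6% for beta over delta, 0.543% for delta over alpha, and 0.808% for delta over beta cells. When only peaks that reached a -log10 q of 2 were used, Gabrg3 was called in delta over alpha cells, where 0.479% of genes were, and in delta over beta cells, where 2.94% were. Gabbr2 was then called in beta over delta cells, as were 0.333% of genes.

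Gad1 lies on chromosome 2 at 70553072 to 70602014 on the plus strand, and encodes the decarboxylase that supplies most GABA in neurons. No library had a peak within 3 kb of its annotated 5′ end. Its other annotated transcripts start between 70562042 and 70566377, and RefSeq places its start at 70562129, which is 9057 bp into the gene. There a region at chr2:70561740-70562338 was called in 6 libraries, with -log10 q of 2.08 and 0.934 in alpha cells, 1.75, 3.96, and 1.43 in beta cells, and 0.951 in delta 1, and none in delta 2. All of these values are low, alpha and beta libraries overlapped, and delta 1 lay between the alpha libraries and below the 3 beta libraries. The strongest region of the gene was intronic, in intron 12 at chr2:70592403-70592844, with 13.3 and 26.8 in alpha cells, 11.5, 3.04, and 15.0 in beta, and 22.2 and 19.0 in delta cells. It was present in all 7 libraries, and beta 2 was the lowest.

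A region downstream of Gad1, at chr2:70616593-70616980, separated alpha from beta libraries by presence. Its -log10 q was 4.52 and 6.92 in alpha cells and 1.91 in delta 1, and no peak was called in delta 2 or in the 3 beta libraries. It is 63.7 kb from the Gad1 5′ end and 2089 bp from the nearest annotated start, that of Gm16510, so its assignment to Gad1 rests on distance alone. Bases just upstream of this inner start of Gad1 and 300 bases around a summit of the downstream region are shown, as the start that carries the peaks and the region called in alpha over beta cells. All sequences are from RefSeq's GRCm38.p6 and are written 5′ to 3′ on the strand of the gene. Capitals mark matches to the motifs searched on both strands, which were CATCTG (an E-box of the NeuroD type), TGTTTAC (forkhead), TAATTA (homeodomain), TGCTGAC (one arm of a Maf site), and TGACGTCA (CRE).
Gad1 promoter, chr2:70561879-70562041, plus strand: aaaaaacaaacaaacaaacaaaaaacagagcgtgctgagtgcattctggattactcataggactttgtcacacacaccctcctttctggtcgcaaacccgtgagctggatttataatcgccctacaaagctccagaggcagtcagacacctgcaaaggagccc
Gad1 downstream region, chr2:70616665-70616964, plus strand: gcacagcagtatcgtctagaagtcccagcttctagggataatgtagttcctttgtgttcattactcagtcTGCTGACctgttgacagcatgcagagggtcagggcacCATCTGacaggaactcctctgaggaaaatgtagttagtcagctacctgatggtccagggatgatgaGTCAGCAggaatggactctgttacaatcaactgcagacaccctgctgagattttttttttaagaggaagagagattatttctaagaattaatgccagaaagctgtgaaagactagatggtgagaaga

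The bases upstream of Gad1 held none of these motifs, while the downstream region held 1 CATCTG and 2 TGCTGAC matches, which do not overlap. Such matches are common, since CATCTG was found in 17.2%, TGCTGAC in 4.67%, TAATTA in 5.29%, TGTTTAC in 3.65%, and TGACGTCA in 1.79% of the 32851 RefSeq promoters of 300 bases (GRCm38.p6). Among the promoters of the 8 genes, all found in that table, CATCTG was present for Gad2 and Gabra5 and TGCTGAC for Gad2, and the other motifs for none.

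Gad2, on chromosome 2 at 22622205 to 22693874 on the plus strand, encodes the form of glutamate decarboxylase that is bound to vesicles. The strongest peak near its 5′ end had a -log10 q of 1.99 and 3.66 in alpha cells, 2.12, 1.82, and 0.909 in beta cells, and 1.15 and 1.54 in delta cells. Thus every library had a peak, only alpha 2 and beta 1 passed 2, and the beta libraries overlapped both others, while both alpha values were above both delta values. The fold enrichment over local background, as MACS2 gives it, was between 2.86 and 4.64. A further region at chr2:22618047-22618474, 3.94 kb upstream, was called in alpha 1 at 2.41, delta 1 at 3.64, and beta 1 at 0.0774. These peaks were not all 1 region. The region at the start, chr2:22621754-22622854, was called in 6 libraries, and the beta 3 peak lay outside it, at chr2:22621367-22621566. Bases just upstream of the Gad2 start, as GENCODE places it, are shown. Every library had a peak within 1 kb of this start, and it passed 2 only in alpha 2 and beta 1. None of the 5 motifs is in them, and the matches of its RefSeq promoter lie further along.
Gad2 promoter, chr2:22622077-22622204, plus strand: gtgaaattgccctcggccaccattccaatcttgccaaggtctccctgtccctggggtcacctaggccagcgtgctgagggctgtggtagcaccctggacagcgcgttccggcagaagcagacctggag

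Slc32a1, which loads GABA and glycine into synaptic vesicles, is a short gene on chromosome 2 at 158610767 to 158615748 on the plus strand. It had no peak within 1 kb of its start in any library, and only 1 library, of alpha cells, had one within 3 kb. Its window held 3 and 4 peaks for alpha cells, 1 and 2 for delta cells, and 6, 0, and 1 for beta cells. Its main region, at chr2:158624597-158625462, lies at the start of the neighbouring gene Actr5, 14.3 kb away. That region had a -log10 q of 8.53 and 7.11 in alpha cells, 7.44 and 8.96 in delta cells, 1.10 and 3.40 in beta 1 and beta 3, and no peak in beta 2. The strongest region of this window is thus at Actr5, and no region of the transporter gene itself was called in 2 libraries.

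Gabbr1, on chromosome 17 at 37045966 to 37075067 on the plus strand, encodes the subunit that binds GABA. Its 5′ end had the -log10 q values 12.02 and 15.5 in alpha cells, 3.26, 11.2, and 27.8 in beta, and 24.7 and 21.2 in delta cells, so the beta libraries spanned the range of the others. The gene is known to use alternative promoters, and a further start at 37050631 lies in a region at chr17:37050463-37050786. That region was called in 6 libraries, with 6.37 and 4.66 in alpha cells, 2.38 and 3.15 in beta 1 and beta 3, and 5.44 and 9.52 in delta cells. Beta 2 lacked it, and had a peak shortly upstream of it, in a region at chr17:37049926-37050196 that was shared with beta 1 alone.

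This beta region of Gabbr1, in intron 5 of the longest transcript, had a -log10 q of 4.82 in beta 1 and 2.90 in beta 2 and no peak in beta 3, alpha, or delta libraries. It is shown as a region called in beta libraries alone. None of the 5 motifs was found in it.
Gabbr1 region, chr17:37049926-37050196, plus strand: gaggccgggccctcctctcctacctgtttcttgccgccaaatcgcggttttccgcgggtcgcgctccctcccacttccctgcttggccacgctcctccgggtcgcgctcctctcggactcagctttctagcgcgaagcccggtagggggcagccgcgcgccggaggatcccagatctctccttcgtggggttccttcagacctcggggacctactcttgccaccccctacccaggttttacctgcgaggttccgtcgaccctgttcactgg

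Further regions of the Gabbr1 window were shared. One at chr17:37028578-37029166, 17.1 kb upstream and nearest to the start of the myelin gene Mog, had a -log10 q between 7.65 in beta 2 and 39.5 in delta 1 and passed 2 in all 7 libraries. Another at chr17:37083298-37083831, downstream and 2671 bp from a start of the olfactory receptor gene Olfr90, ranged from 1.62 in alpha 1 to 12.2 in delta 1. With these, all 5 Gabbr1 regions of at least 2 libraries reached a -log10 q of 2 in at least 2 libraries.

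Gabbr2, on chromosome 4 at 46662305 to 46991873 on the minus strand, encodes the subunit that couples the receptor to G proteins. Its 5′ end was marked more weakly than that of its partner, with -log10 q of 1.13 and 3.52 in alpha cells, 0.0774, 3.38, and 2.39 in beta, and 1.70 in delta 1, and no peak was called in delta 2. Alpha and beta libraries overlapped, and delta 1 lay within their range. A region upstream of it, at chr4:47004443-47005043 and 12.9 kb from the start, had 7.91 in alpha 2, 1.10, 5.85, and 5.58 in beta cells, and none in alpha 1 or in delta cells. It was thus called in beta over delta cells, with 1 alpha library above the beta libraries. The 300 bases around a summit are shown as those of the selective Gabbr2 region with the highest rank in its lists. They hold 1 CATCTG match on the minus strand and 1 TGCTGAC match on the plus strand of the printed sequence.
Gabbr2 upstream region, chr4:47004666-47004965, minus strand: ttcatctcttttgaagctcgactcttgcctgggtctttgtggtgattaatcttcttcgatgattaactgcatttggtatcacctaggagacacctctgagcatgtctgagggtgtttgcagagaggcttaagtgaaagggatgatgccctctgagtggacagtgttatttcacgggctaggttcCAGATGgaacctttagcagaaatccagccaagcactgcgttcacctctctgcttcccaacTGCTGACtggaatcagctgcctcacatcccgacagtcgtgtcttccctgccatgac

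Within the long Gabbr2 gene, regions differed in which libraries carried them. One in intron 13, at chr4:46709629-46710043, was called in beta 2 at 1.82 and beta 3 at 9.10 and nowhere else. A region at the opposite end of the gene, at chr4:46664717-46665003, covers the end of the coding sequence in the last of 19 exons. It had a -log10 q of 4.49 and 11.4 in alpha cells and 0.795 in delta 2, and no peak in any beta library. In intron 7, a region at chr4:46774640-46775036 had 3.30 and 10.8 in alpha cells, 0.0774 and 2.13 in beta 1 and beta 3, and 1.91 and 3.21 in delta cells, and was missing from beta 2. Intron 2 held a region at chr4:46849888-46850554 that was missing from delta 1 alone, with 4.34 and 1.02 in alpha cells, 6.49, 5.79, and 1.43 in beta cells, and 1.93 in delta 2. The strongest region of the window, at chr4:46649924-46650641, is at the start of Tbc1d2 and ranged from 6.17 in beta 1 to 39.0 in delta 1.

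Gabra4, on chromosome 5 at 71569749 to 71658308 on the minus strand, encodes an alpha subunit of GABA-A receptors that in the brain often lies outside synapses. Its 5′ end had a -log10 q of 24.9 and 22.5 in alpha cells, 5.96, 6.43, and 19.5 in beta cells, and 10.02 and 18.2 in delta cells. On this scale both alpha libraries were above all others. The start of Gabrb1, a beta subunit gene on the opposite strand, is 195 bp away, so that the same peaks mark both genes and cannot be given to either. By fold enrichment over local background, which ran from 6.33 in beta 1 to 12.02 in alpha 1, alpha 2 at 11.24 was below beta 3 at 11.62 and delta 2 at 11.63, so the order of the cell types depended on the measure.

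Further into Gabra4, regions were found that no beta library had or that, of the beta libraries, beta 1 alone had, at its weakest value. In the last of 9 exons, at chr5:71571628-71571981 and 86.5 kb from the start, the -log10 q was 6.19 and 10.2 in alpha and 2.98 and 7.62 in delta cells, and none of the 3 beta libraries had a peak. It overlaps the end of the coding sequence. In intron 8, a region at chr5:71606860-71607290 had 2.16 and 12.5 in alpha cells and 8.33 in delta 1, with 0.0774 in beta 1 and no peak in the remaining 3 libraries. A region about 7.5 kb upstream of the start, at chr5:71665586-71665950, was called in alpha 1 at 2.16, in alpha 2 at 8.29, and in beta 1 at 0.0774. It lies inside Gabrb1. The 2 other Gabra4 regions, both intronic, were called in beta 1 at 0.0774 and in beta 3 at 1.43.

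Gabrg3, on chromosome 7 at 56716465 to 57387188 on the minus strand, encodes a gamma subunit and is the longest of the 8 genes. Its 5′ end was the clearest difference between cell types among them. The strongest peak within 1 kb had a -log10 q of 8.18 and 7.87 in the delta libraries, 0.182 in alpha 2, 1.31 in beta 2, and 0.984 in beta 3, and none was called in alpha 1 or beta 1. The delta libraries did not overlap the others, and their fold enrichments were 6.30 and 6.84, against 2.20 to 3.25. With presence alone, without regard to q, the weak beta and alpha peaks kept this gene from being called.

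**Figure D2:**
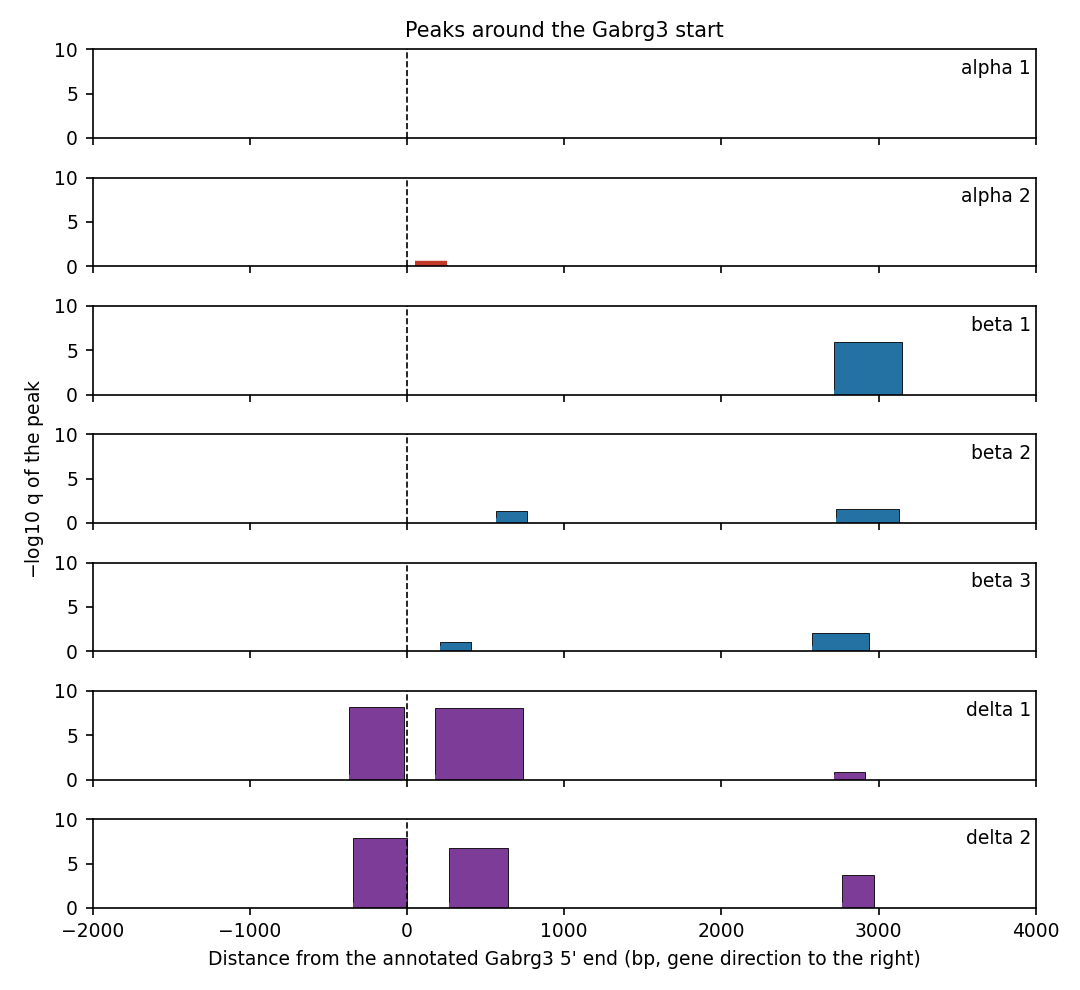
Peaks around the start of Gabrg3 in each library. Horizontal axis, distance from the annotated 5′ end in bp with the gene running to the right; vertical axis, -log10 q of the peak; each box spans 1 peak, and a peak too weak to see has a coloured stretch on the axis. Both delta libraries have peaks on either side of the start, at 8.18 and 7.87 before it and 8.02 and 6.78 after it, where no other library passes 1.31.

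The delta signal was made of a pair of regions on either side of the start. The region at chr7:57387187-57387554 reached from the start upstream, was called in both delta libraries and in none of the other 5, and includes the start of Gm9962, a gene on the opposite strand whose start is 84 bp from that of Gabrg3. The region at chr7:57386423-57387134, over the first exon, had 8.02 and 6.78 in delta cells, 0.182 in alpha 2, and 1.31 and 0.984 in beta 2 and beta 3. A further region 2.86 kb into the gene, at chr7:57384036-57384613, was instead shared by beta and delta libraries, with 5.94, 1.58, and 2.02 in beta and 0.852 and 3.74 in delta cells, and had no peak in either alpha library. The 300 bases around a delta summit upstream of the start are shown, since they were called in delta libraries alone. They hold none of the 5 motifs.
Gabrg3 region, chr7:57387247-57387546, minus strand: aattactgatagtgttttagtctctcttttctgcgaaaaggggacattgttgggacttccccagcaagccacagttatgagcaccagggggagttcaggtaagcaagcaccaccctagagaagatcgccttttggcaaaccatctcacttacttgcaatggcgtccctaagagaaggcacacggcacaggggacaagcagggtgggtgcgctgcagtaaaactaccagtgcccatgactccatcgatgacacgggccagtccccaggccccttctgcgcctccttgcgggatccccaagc

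Further delta peaks lay deep in the gene. In intron 3, at chr7:56997725-56998622 and 389 kb from the start, the -log10 q was 16.5 and 15.8 in delta cells, 3.06, 2.20, and 1.45 in beta cells, 0.182 in alpha 2, and none in alpha 1. On this scale both delta libraries were far above the other 5. Their fold enrichments were 10.2 and 10.4, against at most 4.55 in the others. By rank within its list, a percentile by -log10 p, beta 1 at 96.7 was instead above delta 1 at 93.5 and delta 2 at 89.7. The order of delta cells and beta 1 thus depended on the measure. A weaker region of the same intron, at chr7:57037353-57037684, was called in delta 1 at 1.91 and delta 2 at 3.21 and in no other library. Close by, in intron 4, a narrow region of 220 bp at chr7:56982898-56983117 was nearly level in all 7 libraries, from 17.01 in alpha 2 to 22.02 in beta 1.

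Gabra5, on chromosome 7 at 57407672 to 57510059 on the minus strand, encodes an alpha subunit known for tonic inhibition, and its start is 123 kb from that of Gabrg3. Within 1 kb of its 5′ end, peaks were called in alpha 2 at 0.804, beta 3 at 2.57, and delta 1 at 4.29, which is 1 library of each cell type. The strongest difference was in intron 2, at chr7:57502844-57503415 and 6.93 kb from the start. There the -log10 q was 15.0 and 13.5 in delta cells, 0.0774, 0.816, and 2.85 in beta cells, and no peak was called in either alpha library. Delta libraries again did not overlap the others. The region at chr7:57474201-57474522, in intron 5, was common to all 7, with 3.30 and 3.15 in alpha cells, 14.6, 5.08, and 11.9 in beta, and 13.6 and 6.06 in delta cells, so that the alpha values were the lowest. In the same intron, chr7:57467861-57468256 had 2.16 and 2.03 in alpha and 0.951 and 1.93 in delta cells and no peak in beta cells.

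**Figure D3:**
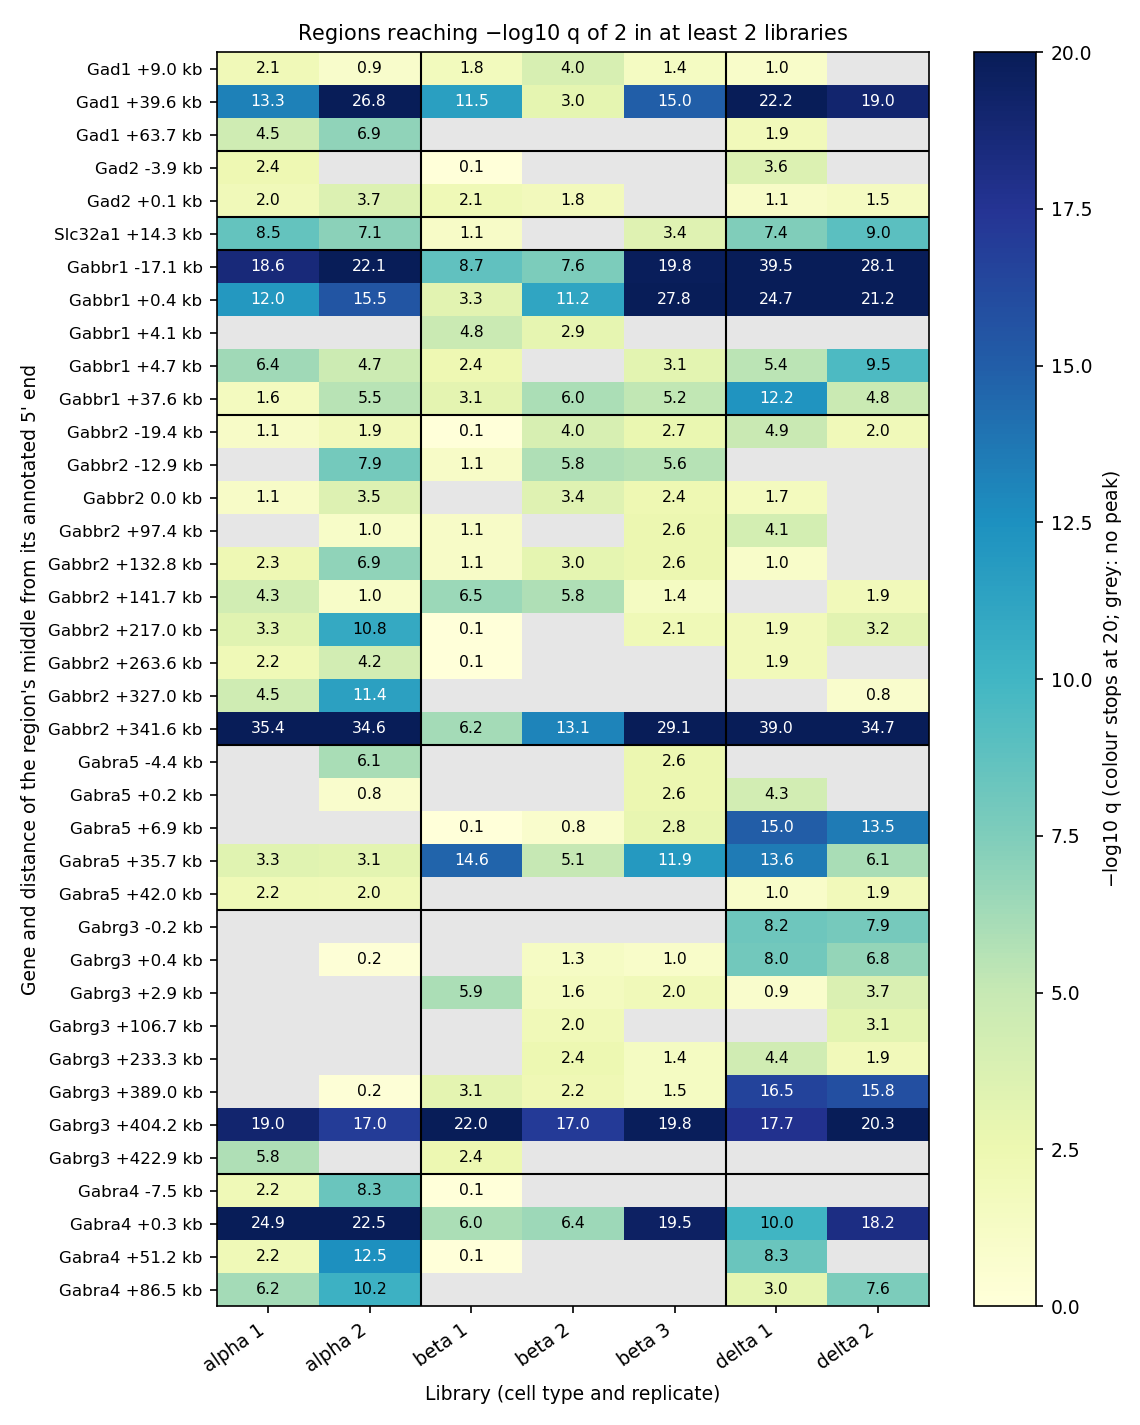
Strength, as -log10 q, of the 38 regions that reached 2 in at least 2 libraries. Rows are regions, named by gene and by the distance of their middle from its annotated 5′ end in kb. Positive values run in the direction of the gene and can lie beyond its end, as for Gad1 at 63.7 kb. Columns are libraries, and grey cells have no peak. High delta values stand out for Gabrg3 at -0.2, 0.4, and 389 kb and for Gabra5 at 6.9 kb. Beta columns are empty for Gabra4 at 86.5 kb, Gad1 at 63.7 kb, Gabbr2 at 327 kb, Gabra5 at 42 kb, and Gabrg3 at -0.2 kb.

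Peaks of the 7 lists that overlap by at least 1 bp were joined, which gave 648 regions in the 8 windows, 110 of them shared by 2 or more libraries. Of the remaining 538, 321 were called in beta 1 alone, which is 49.5% of all the regions in the windows and 49.8% of all regions in the genome. Of the 110, 54 lie at Gabrg3, 23 at Gabbr2, and 9 or fewer at each other gene. By place, 27 (24.5%) were within 3 kb of a transcript start, 72 (65.5%) in introns, 6 (5.45%) in exons, and 5 (4.55%) outside genes. Over all 133698 regions of at least 2 libraries these shares were 26.9%, 31.0%, 3.45%, and 38.6%, so the windows, which are drawn around genes, hold more intronic and fewer intergenic regions. All 7 libraries shared 9 (8.18%) of the 110, against 13.3% over the genome.

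Regions were then called as the genes were above, from a peak in 2 or more libraries of the first cell type and none in the second. Alpha cells had 4 regions not found in beta cells (3.64%, against 5.41% of all regions) and 4 not found in delta cells (3.64%, against 5.38%). Delta cells had 6 not found in alpha cells (5.45%, against 5.13%) and 5 not found in beta cells (4.55%, against 4.85%). These shares are near the background. Beta cells had 27 regions not found in alpha cells (24.5%, against 14.8%) and 28 not found in delta cells (25.5%, against 13.2%), of which 18 and 17 were at Gabrg3.

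The beta counts depended on beta 1. Without it 62 regions of at least 2 libraries remained in the windows, and beta cells had 6 of them not found in alpha cells (9.68%, against 3.94%) and 5 not found in delta cells (8.06%, against 2.83%). Alpha cells then had 10 regions not found in beta cells (16.1%, against 16%), and delta cells 5 (8.06%, against 13.6%). Leaving out beta 2 gave 13 and 15 beta regions, and leaving out beta 3 gave 16 and 16, for alpha and delta as the other cell type. The alpha count over beta cells was 7 without alpha 1. For alpha over delta cells it was 14, 17, and 11 without alpha 1, alpha 2, and delta 1, and for delta over alpha cells it was 14 without delta 2, where a single library then stood for its cell type. Shares over all regions are given here only with all 7 libraries and without beta 1, so these other counts cannot be set against a background.

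**Figure D4:**
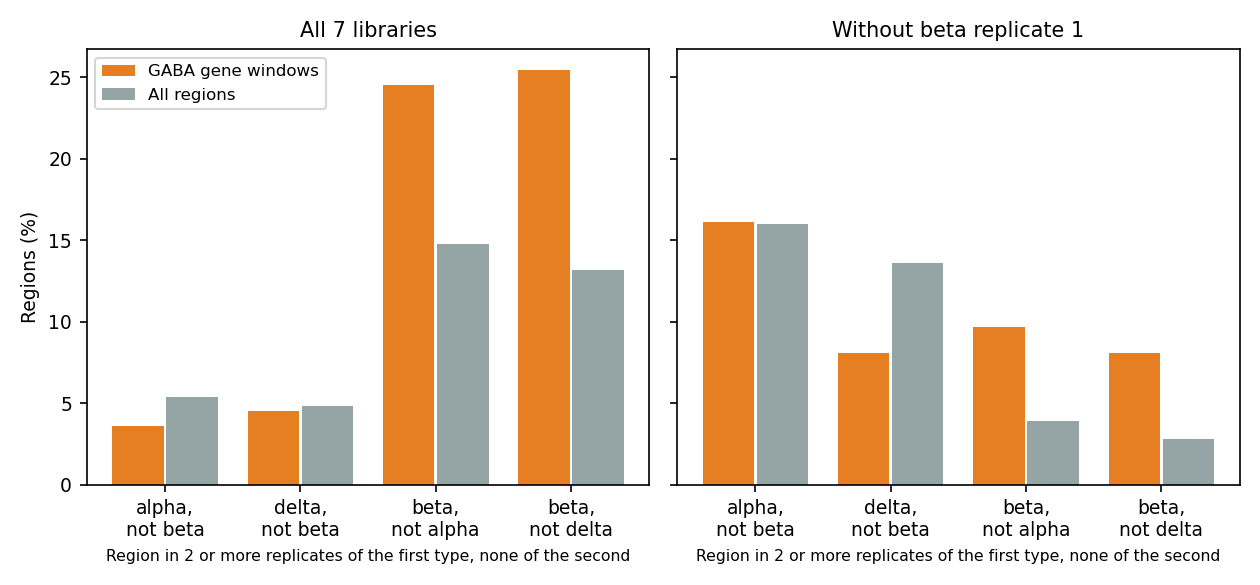
Share of regions, in percent, called between the cell types named on the horizontal axis, for regions in the 8 gene windows (orange) and for all regions (grey), with all 7 libraries (left) and without beta 1 (right). The beta shares in the windows are 24.5% and 25.5% with beta 1 and 9.68% and 8.06% without it. The bars have no error bars, since each is a single count.

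As a measure that does not depend on where a peak lies, the peaks of each window were counted per 10000 distinct peaks of the library. The spread between cell types was tested for every protein-coding gene by an exact permutation test over all 210 assignments of the libraries, for which 0.00952 is the smallest p. A p of at most 0.05 was found for 4.42% of genes, and no gene passed after Benjamini-Hochberg adjustment. Gabra5 had 0.700 ± 0.0200 peaks per 10000 in alpha cells (SD, n = 2), 0.880 ± 0.189 in beta cells (SD, n = 3), and 0.517 ± 0.0150 in delta cells (SD, n = 2), and was the only one of the 8 below 0.05 (exact permutation test, p = 0.0286, adjusted p = 1). The 3 groups of libraries did not overlap, at 0.686 and 0.715, 0.770 to 1.10, and 0.506 and 0.527. With only peaks that reached a -log10 q of 2 its exact permutation p was 1, so that this order rests on weak peaks. Without any single library its exact permutation p was between 0.0667 and 0.217, where 0.0667 is the smallest that the test allows without a beta library. Within sex the exact permutation p was 0.0833, where 0.0278 could be reached, and with the replicate number as a block it was 0.111.

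**Figure D5:**
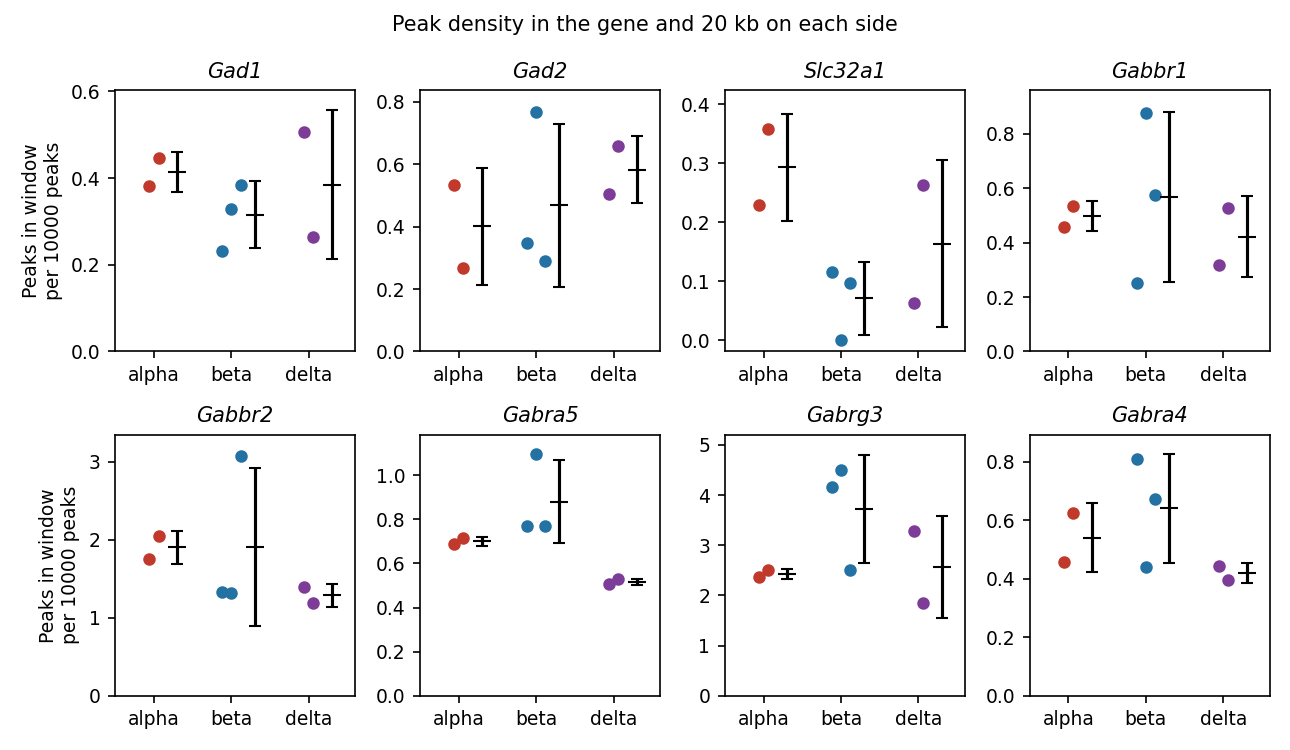
Peaks in each gene and 20 kb on either side per 10000 distinct peaks of the library. Points are libraries, coloured by cell type, and the black bars beside them are the mean and SD of each cell type (n = 2 alpha, 3 beta, and 2 delta libraries). Groups of points separate for Gabra5 and overlap for most other genes.

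Of the other genes, Gad1 had 0.414 ± 0.0462 peaks per 10000 in alpha cells, 0.315 ± 0.0777 in beta cells, and 0.385 ± 0.171 in delta cells, and Gad2 had 0.401 ± 0.188, 0.468 ± 0.262, and 0.583 ± 0.108 (SD, n = 2, 3, and 2). Neither difference between cell types passed the test (exact permutation test, p = 0.543 and 0.638), and for both genes the delta and the beta libraries overlapped. Slc32a1, the shortest gene, had the fewest peaks of the 8 on this scale, which is not divided by the length of the window, with 0.293 ± 0.0909 in alpha cells, 0.0706 ± 0.0620 in beta, and 0.163 ± 0.142 in delta cells (exact permutation test, p = 0.181). Both alpha libraries were above the 3 beta libraries, and delta 2 lay between the alpha values. For Gabbr1, Gabbr2, Gabrg3, and Gabra4, the exact permutation p was 0.790, 0.781, 0.286, and 0.286. Gabrg3, the longest gene, had the most peaks on this scale, at 2.43 ± 0.0970, 3.72 ± 1.07, and 2.57 ± 1.02, and so the delta peaks at its start did not show in its number of peaks.

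Patterns most like those of the 3 genes with a peak at the 5′ end in some but not all libraries were sought among protein-coding genes on other chromosomes, by the mean absolute difference, over 7 libraries, of the rank of the peak within its library (a percentile by -log10 p, with 0 where there was none). For Gabrg3 these were Ankrd22, Rgs22, and Nsg1, which differed by 7.61, 8.09, and 8.48 percentile points. The nearest to Gabra5 were C1qtnf4, Arpp21, and Col19a1, at 4.51, 4.69, and 4.75 points. Adap2, D330045A20Rik, and Dchs1, at 8.37, 8.44, and 9.43 points, came closest to Gabbr2.

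The rest of the GABA pathway was followed in 50 genes. Of these, 31 were marked at the 5′ end for alpha cells, 32 for beta cells, and 33 for delta cells. The shares of all protein-coding genes were 56.8%, 56.1%, and 54.1%. No library had a peak for 7 of the 50, beside 17.3% of all genes. Of 16 further GABA-A subunit genes, 4 were marked in all 7 libraries and 4 in none, beside 41.5% and 17.3% of all genes. Gabrg1, a gamma subunit gene named here after its values were seen, had a -log10 q of 53.8 and 63.1 for alpha cells, 86.8 and 72.01 for delta cells, and 11.5, 9.30, and 5.77 for beta cells. Its 3 beta values were below the 4 others. By rank within the list, beta 1 at the 99.23 percentile was nearly level with alpha 2 at 99.27, while beta 2 and beta 3 were at 93.6 and 85.7.

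All 4 genes of GABA breakdown and of the putrescine route had a peak in all 7 libraries, the GABA transaminase gene Abat among them, beside 41.5% of all protein-coding genes. Of 4 plasma membrane GABA transporter genes, 1 was marked for alpha cells, 1 for delta cells, and 0 for beta cells. No library had a peak for 2 of them, beside 17.3% of all genes. The 4 auxiliary subunits of GABA-B receptors were marked for 3 in each cell type, and the 8 G protein and GIRK channel genes, through which the receptor acts, for 6 in each, beside 54.1% to 56.8% of all genes. No test was run on these groups.

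By window density, 3 of the 50 pathway genes had an unadjusted exact permutation p of at most 0.05, beside the 4.42% of all genes. Gabra2, an alpha subunit gene, had 0.497 ± 0.0554 peaks per 10000 in alpha cells, 0.930 ± 0.200 in beta, and 0.419 ± 0.0335 in delta cells (exact permutation test, p = 0.0190). Kcnj6, a GIRK channel gene, had 1.70 ± 0.248, 0.847 ± 0.185, and 1.04 ± 0.213 (exact permutation test, p = 0.0381). Slc38a2, a glutamine transporter gene, had 0.452 ± 0.00771, 0.251 ± 0.102, and 0.388 ± 0.0112 (exact permutation test, p = 0.0476). All 3 had n = 2, 3, and 2 libraries and an adjusted p of 1. Gabra2 was higher in all 3 beta libraries than in the other 4, and Slc38a2 lower.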

How the data were processed

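Peak lists of 7 ATAC-Seq libraries were used, grouped by their labels, which call them biological replicates. Per the labels and the study's methods, the authors cleaned single-end 50 bp reads (Trimmomatic), mapped them to mm10 (Bowtie2), handled duplicates with Picard, and ran MACS2 on each library by itself. The deposited score, the fold enrichment (a ratio to local background), and the -log10 p and -log10 q come from the authors' MACS2 calls. Versions and the caller's threshold are not given in the sources used here, and each list ends at a -log10 p of about 2.01. The lists hold no reads per region, so a missing peak has no stated limit. The study's quality table, from which the sex of each library was taken by its name, gives the reads per library. They are not printed here, but unique reads were fewest in beta 1 and fewer in each beta library than in either alpha library or delta 1, and peaks were not adjusted for them. P-values measure the spread between these libraries alone.

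Repeated intervals were counted once, and peaks overlapping by at least 1 bp were merged (0 of 834695 regions differed from bedtools 2.31.1). Genes came from GENCODE vM21. Exon and intron numbers are those of the longest transcript. All 8 genes were named. Of the 50 pathway genes, those called in any pair or with a p of at most 0.05 were, and, of the regions, that at each start and up to 3 selective ones a gene, by rank. The other regions and Gabrg1 were named after their values were seen. A result of that rule is not reported here. The steps were tested on simulated lists. The members and lists were chosen with earlier results of these data known. Alternatives were stricter peaks, other windows, batches, and each library left out. Python 3.11.15, numpy 2.4.6, and pandas 2.3.3 were used.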

Additional observations from a re-analysis of the deposited data

How the results depend on the processing

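Counts of calls moved with the strength asked of a peak. Region calls are summed here over the 6 ordered pairs of cell types, so a region called against both other cell types counts in both. As above, the share of all regions called is given only for all 7 libraries and without beta 1. No background stands beside the other region calls. The same holds for 5′ end counts other than those with all peaks or with a -log10 q of 2. Only peaks that reached a -log10 q of 2 were used first. Genes marked at the 5′ end then numbered 2 in alpha cells, 3 in beta, and 3 in delta cells. The shares of all genes were 51.4%, 41.4%, and 48.3%. Calls there numbered 3, and genes of the 8 with a density p of at most 0.05 numbered 2 (Gabbr1 and Gabra4, beside 7.47% of all genes). Region calls numbered 30, of which alpha over beta cells had 7, alpha over delta 6, beta over delta 5, beta over alpha 4, delta over alpha 5, and delta over beta 3. With the 50000 strongest peaks of each list these counts were 2, 3, 3, 3, 1 (Gabbr1, beside 5.37% of all genes, whereas the exact permutation p of Gabra5 was 0.971), 34, 7, 6, 7, 6, 5, and 3. With presence at a -log10 q of 2 and absence over all peaks, the region calls numbered 13, with 4, 1, 2, 2, 2, and 2 in the same order. With presence in every library of a cell type and in no other library they numbered 10, with 0, 0, 2, 2, 3, and 3. Counting only 3 kb upstream of a start as promoter gave 15.5% of regions in place of 24.5%.

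The density count was 1, for Gabra5, and 1 for the gene alone, but 0 with 5 kb or 50 kb on each side, 0 for numbers of peaks not scaled, 0 within sex, and 0 within sequencing lane, where the smallest exact permutation p was 0.0556. With the replicate block it was also 0, with 0.0556 again the smallest exact permutation p. The deviations of same-numbered libraries correlated between -0.108 and 0.512 over genes, so the numbers were not taken to pair them.

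Leaving out each library in turn gave 4 to 6 genes marked in alpha cells, 4 to 5 in beta, and 4 to 6 in delta cells, 0 to 2 calls at the 5′ end (2 without alpha 2 and 2 without delta 1), and 0 to 0 density calls. Region calls ranged from 36 to 98 beside 74, with 4 to 10 for alpha over beta cells, 4 to 17 for alpha over delta, 5 to 32 for beta over delta, 6 to 34 for beta over alpha, 6 to 14 for delta over alpha, and 4 to 6 for delta over beta, and promoter regions from 23.5% to 32.3%. Where 1 library was left for a cell type, its peaks alone counted as presence. Of the counts and shares compared with an alternative, 92 stayed within 1.5 times and 60 moved further. Of the exact permutation p-values compared, 110 stayed on the same side of 0.05. A further 15 rose above it, and 3 fell below it. This tally includes settings in which the test could not reach 0.05. The smallest exact permutation p was 0.0556 with the replicate block and within lane, and 0.0667 with any beta library left out. In these settings no p could fall below 0.05, and the 0 density calls without a beta library were fixed in advance. The cause of these moves was not tested. Reads per region, which limit every absent peak, are not in the lists.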
